A study of Mus musculus with 12 samples.

Results

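A set of 10 genes that report on FGF-ERK signalling were examined in mouse ESCs cultured in 2i or in serum, with and without P53. They were chosen by name, as 10 of the 24881 gene symbols measured: the ERK phosphatase genes Dusp4 and Dusp6, the inhibitor genes Spry1, Spry2, Spry4 and Spred1, the ETS factor genes Etv4 and Etv5, and the immediate early genes Egr1 and Fos. RNA was sequenced from R1 ESCs that carry the FUCCI reporters, fluorescent proteins that mark the cell cycle phases, after sorting of G1-phase cells. WT ESCs were compared with P53-/- ESCs, in which Trp53 had been disrupted with CRISPR/Cas9. Both were grown in serum medium with LIF (WT serum and P53-/- serum) or in 2i (WT 2i and P53-/- 2i). The 2i medium is serum-free N2B27 that holds LIF, the MEK inhibitor PD0325901 and the GSK3 inhibitor CHIR99021. All groups therefore share the R1 line, the reporters, LIF and the G1 sort. Each of the 4 groups had 2 libraries, numbered here in column order. The P53-/- ESCs were clones 1 and 2 of this line, and the table does not tie a library to a clone.

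FGF4 made by ESCs signals through FGF receptors to RAS, RAF, MEK and ERK, and active ERK turns on genes whose products slow the same pathway. DUSP6 and DUSP4 remove the activating phosphates from ERK, Sprouty and SPRED proteins hold back signalling at the level of RAS and RAF, and ETV4 and ETV5 are ETS transcription factors induced by FGF. EGR1 and FOS are transcription factors made within minutes of ERK activation, and FOS also responds to stress kinases, calcium and cAMP. In ESCs this pathway favours exit from pluripotency, and inhibition of MEK in 2i blocks it between RAF and ERK.

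Values are FPKM, a length-corrected level that the authors scaled to the mapped fragments, and differences are log2 fold changes of FPKM + 0.1 from limma. Calls were made at a Benjamini-Hochberg adjusted p under 0.1 and a change over 1.5-fold, among the 12572 genes whose mean FPKM reached 0.5. All 10 genes passed this filter, Spry4 only through its serum libraries. Depth, estimated from the steps between low values, ran from 5190000 to 13300000 fragments per library. Trp53 was lower in each P53-/- library (1.88 to 16.8 FPKM) than in the WT libraries of the same culture (26.8 to 77.6 FPKM). Within P53-/- it was 7.25 and 1.88 FPKM in 2i and 16.8 and 3.68 in serum. All 10 ESC markers examined had a mean FPKM of at least 1, and their sum was 3682 to 4853 per library. Dppa5a gave the largest part of this sum. Between WT 2i and WT serum, Pou5f1 (log2 fold change 0.80) and Fbxo15 (2.22) were called as higher in 2i. Sox2 (−0.60), Sall4 (−1.85), Tdgf1 (−0.70) and Utf1 (−3.07) were called as lower, and the other ESC markers were not called. Of 8 fibroblast markers, Col3a1 and Postn were at 0 throughout, and the sum was 1.75 to 2.73 FPKM in 2i and 8.31 to 11.7 in serum. Thy1 gave most of the serum sum and Pdgfrb the largest part of the 2i sum. The sum of 6 mesoderm markers was 8.84 to 13.5 FPKM in P53-/- 2i, 12.8 to 14.6 in WT 2i, 2.78 to 3.32 in P53-/- serum and 4.03 to 4.04 in WT serum. That of 8 primitive endoderm markers was 1.63 to 2.34 FPKM in P53-/- 2i and 2.62 to 4.37 in WT 2i, and in serum 1.30 to 1.53 in P53-/- and 3.09 to 3.12 in WT. For 6 neural progenitor markers, mostly Tubb3 and with 1 marker at 0 throughout, it was 22.5 to 27.7 FPKM in P53-/- 2i, 31.5 to 34.2 in WT 2i, 36.01 to 41.1 in P53-/- serum and 26.5 to 27.5 in WT serum, so that P53-/- was lower than WT in 2i and higher in serum. The part of these markers in the results that follow was not tested.

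Promoter windows around the annotated start were available in RefSeq for 6 of the 10 genes (Dusp6, Spry1, Spry2, Spred1, Fos and, with a pair of windows, Etv5). The windows of 3 genes are shown because 2 belong to genes that were lower in 2i and 1 to the gene that was higher, all on GRCm38.p6, 5′ to 3′ on the strand of the gene, with any match to a searched motif in capitals. Dusp6 is at chr10:99262981-99263280 on the plus strand, Spry2 at chr14:105896770-105897069 on the minus strand and Fos at chr12:85473640-85473939 on the plus strand.
Dusp6: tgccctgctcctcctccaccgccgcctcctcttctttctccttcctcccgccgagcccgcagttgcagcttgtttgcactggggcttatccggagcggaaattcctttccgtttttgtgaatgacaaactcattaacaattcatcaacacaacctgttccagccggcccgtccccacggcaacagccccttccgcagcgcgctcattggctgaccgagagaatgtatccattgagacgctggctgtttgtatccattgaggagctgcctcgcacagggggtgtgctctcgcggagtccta
Spry2: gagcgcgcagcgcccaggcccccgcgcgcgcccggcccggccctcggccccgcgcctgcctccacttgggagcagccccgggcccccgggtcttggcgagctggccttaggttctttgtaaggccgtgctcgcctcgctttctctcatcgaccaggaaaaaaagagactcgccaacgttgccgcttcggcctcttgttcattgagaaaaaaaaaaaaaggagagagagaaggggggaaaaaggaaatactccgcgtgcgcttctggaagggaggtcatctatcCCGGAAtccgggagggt
Fos: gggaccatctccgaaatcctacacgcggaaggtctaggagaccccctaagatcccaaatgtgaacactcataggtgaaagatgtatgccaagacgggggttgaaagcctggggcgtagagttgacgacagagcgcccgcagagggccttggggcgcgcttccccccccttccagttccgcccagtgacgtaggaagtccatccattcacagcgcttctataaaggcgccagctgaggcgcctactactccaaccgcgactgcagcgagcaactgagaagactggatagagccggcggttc
The motifs were searched on both strands: the ETS core CCGGAA, the cAMP response element TGACGTCA, the AP-1 site TGANTCA, the E-box CACGTG, the EGR site GCGTGGGCG and the CArG box bound by SRF. The windows of the 6 genes held 1 match, an ETS core in Spry2 that begins at base 284 of its window. Among 32851 RefSeq mouse promoter windows of the same length, 14.9% held the ETS core, 7.81% the AP-1 site, 7.15% the E-box, 1.79% the cAMP response element, 1.63% the CArG box and 0.612% the EGR site. The absence of a match in a window says only that these letters are not in it.

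The first comparison asked how the 10 genes differed between 2i, where MEK is inhibited, and serum in WT ESCs. The cultures also differ in the GSK3 inhibitor, the base medium and serum, and these cannot be told apart from MEK inhibition. In bulk RNA, fewer cells that express a gene and less RNA per cell cannot be told apart. Most of the feedback genes were lower in 2i. Spry4 had the largest difference, Spry2, Etv4, Spred1 and Dusp6 were 5.00 to 6.13 times lower, and Spry1 and Dusp4 were 2.40 and 1.80 times lower. Etv5 and Egr1 were not called, and Fos was 12.4 times higher. Thus 7 of the 10 genes were called as lower in WT 2i, where 28.6% of all genes tested were, and 1 as higher, where 27.2% were. The libraries of the 2 cultures did not overlap for 9 of the genes, 7 lower in 2i (41.7% of all genes tested) and 2 higher (40%). The median log2 fold change was −1.79 over the 10 genes and −0.02 over all genes tested.

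**Figure D1:**
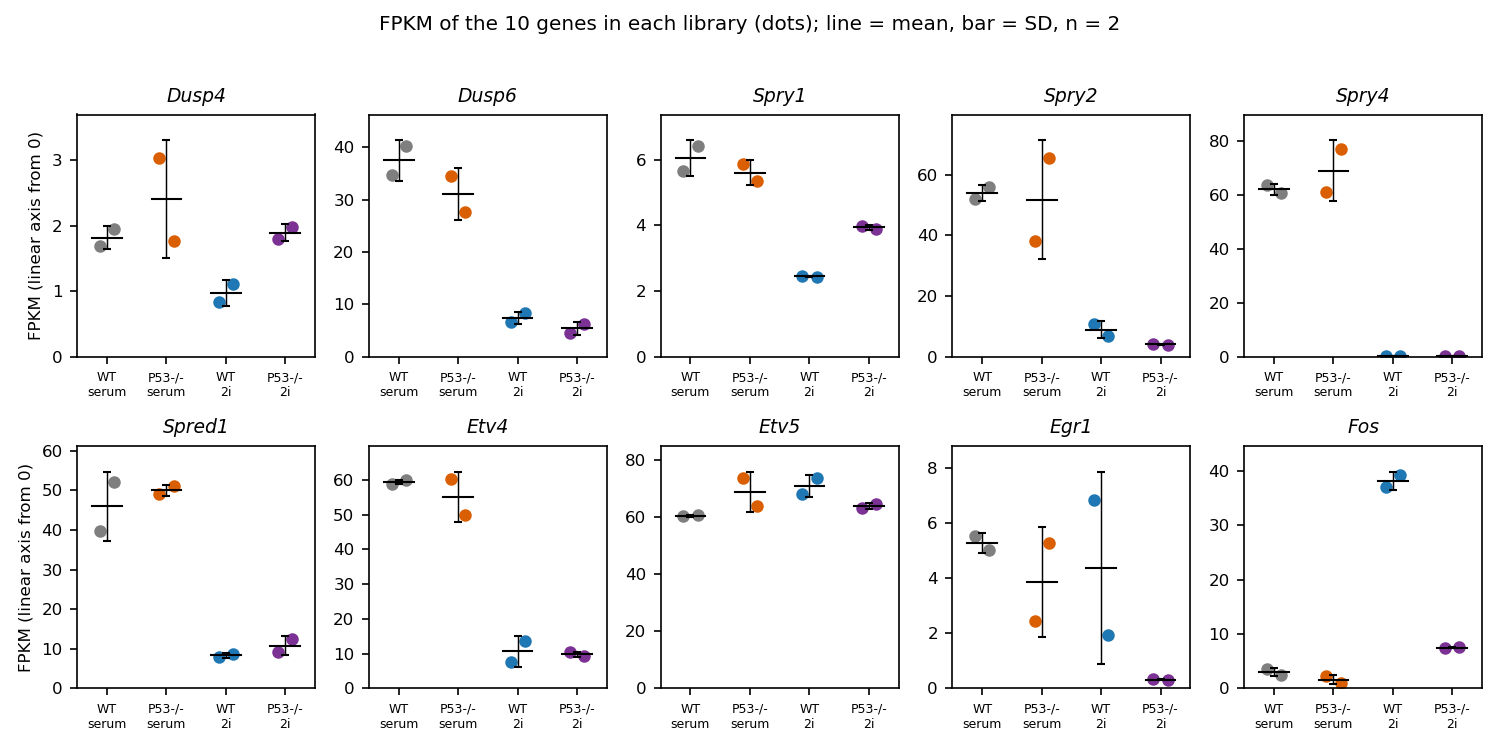
FPKM of the 10 genes in each group, on linear axes from 0 with a separate scale per gene. Dots are the 2 libraries, the horizontal line their mean and the bar the SD. Spry4 lies near 0 in all 4 libraries in 2i, Etv5 stays between 60.2 and 73.8 in all 8, and Fos is highest in WT 2i.

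Of the ERK phosphatases, Dusp6, which acts on ERK in the cytoplasm, had 34.8 and 40.2 FPKM in the WT serum libraries and 6.61 and 8.27 in WT 2i. Both 2i libraries lay far below both serum libraries, with a log2 fold change of −2.32 (SE 0.21, limma adjusted p = 8.76e-05). Dusp4 encodes a nuclear phosphatase and was less abundant, with 1.69 and 1.95 FPKM in WT serum and 0.832 and 1.11 in WT 2i. Its libraries did not overlap either, and the log2 fold change was −0.85 (95% interval −1.57 to −0.13, limma adjusted p = 0.0451). This call was lost with a pseudocount of 1 (limma adjusted p = 0.0617, under 1.5-fold) and without WT 2i library 1 (limma adjusted p = 0.172), WT serum library 1 (0.103) or WT serum library 2 (0.178).

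All 3 Sprouty genes were lower in WT 2i. Spry4 had 63.4 and 60.6 FPKM in WT serum and 0.208 and 0.399 in WT 2i, which corresponds to an estimated 7.78 and 9.84 fragments in the latter. The serum libraries were thus at the level of Etv4 and Etv5 and the 2i libraries rested on few fragments, with a log2 fold change of −7.31 (SE 0.27, limma adjusted p = 4.94e-06). At such low values the fold change depends on the pseudocount, and it was −5.60 with a pseudocount of 1 and −7.74 with 0.01.

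Spry2 had 52.0 and 55.8 FPKM in WT serum and 10.9 and 6.92 in WT 2i (log2 fold change −2.62, SE 0.28, limma adjusted p = 0.000195). Spry1 was lower than Spry2 in serum, with 5.65 and 6.43 FPKM, and had 2.47 and 2.44 in WT 2i (log2 fold change −1.26, SE 0.16, limma adjusted p = 0.000415). Spred1, which encodes a Sprouty-related inhibitor that recruits the RAS GTPase activator neurofibromin, had 39.9 and 52.1 FPKM in WT serum and 7.81 and 8.78 in WT 2i. Its log2 fold change was −2.45 (SE 0.19, limma adjusted p = 5.40e-05). For none of these genes did a 2i library reach the level of a serum library.

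Of the related factors Etv4 and Etv5, Etv4 was called and Etv5 was not. Etv4 had 58.9 and 59.9 FPKM in WT serum and 7.52 and 13.8 in WT 2i (log2 fold change −2.53, SE 0.26, limma adjusted p = 0.000142). Etv5 had nearly the same level in WT serum, 60.2 and 60.6 FPKM, but 68.1 and 73.5 in WT 2i. Both 2i libraries of Etv5 were above both serum libraries, the log2 fold change was 0.23 (95% interval −0.04 to 0.50) and the gene was not called (limma adjusted p = 0.127).

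Of the immediate early genes, Fos was called and Egr1 was not. Fos had 3.58 and 2.48 FPKM in WT serum and 37.0 and 39.4 in WT 2i (log2 fold change 3.63, SE 0.34, limma adjusted p = 0.000102), the 214th largest rise among the genes tested. Egr1 had 5.53 and 5.03 FPKM in WT serum, and its WT 2i libraries lay on either side of these values, at 6.84 and 1.92. The log2 fold change of Egr1 was −0.52 with a 95% interval of −1.82 to 0.78 (limma adjusted p = 0.448). A single library decided this result, since Egr1 was called as lower without WT 2i library 1 (−1.41, limma adjusted p = 0.0381) and had a positive value without WT 2i library 2 (0.37).

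The same comparison was made in P53-/- ESCs, in none of the WT libraries but with the spread of each gene estimated over all 4 groups. Here 6 of the 10 genes were called as lower in 2i, against 30.1% of all genes tested, and Fos was again called as higher, against 28% of all genes tested. Without overlap between cultures were 7 genes lower in 2i, against 42.1% of all genes tested, and 1 higher, against 39.7%. The median over the 10 genes was −2.35, and −0.03 over all genes. Dusp6, Spry2, Spry4, Spred1 and Etv4 were lower in 2i in both genotypes, Egr1 was called in P53-/- and Spry1 and Dusp4 in WT.

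**Figure D2:**
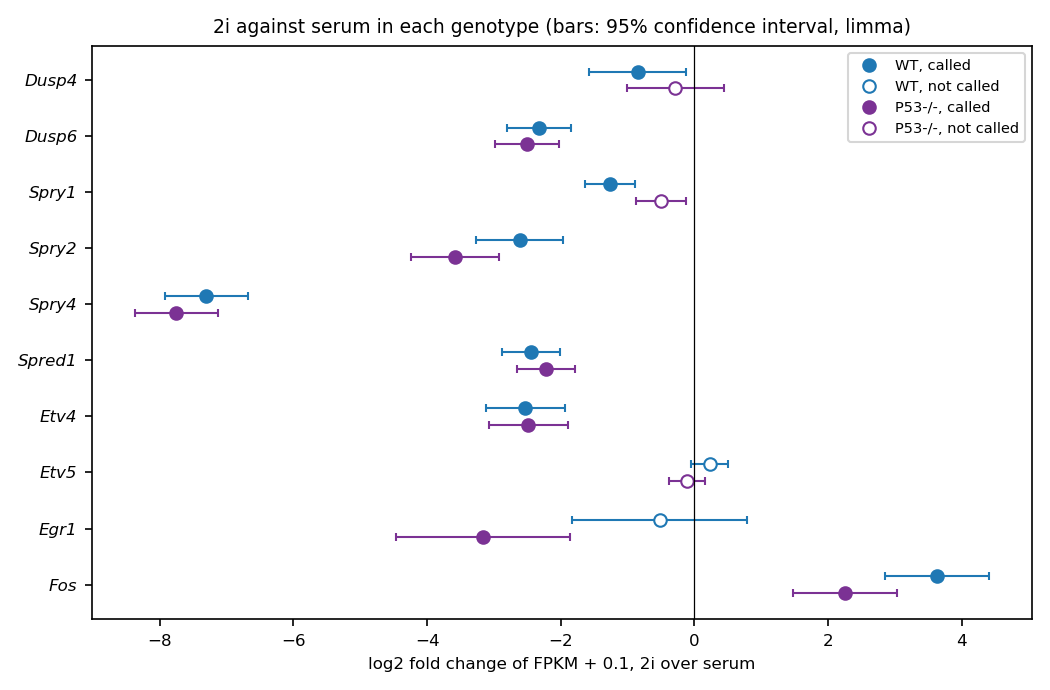
Log2 fold change of FPKM + 0.1 between 2i and serum for each of the 10 genes, in WT (blue) and P53-/- (purple), with 95% confidence intervals from limma. Filled points were called. Spry4 is at −7.31 in WT and −7.76 in P53-/-, and Fos is to the right of 0 in both genotypes.

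In P53-/- ESCs Dusp6 had 34.6 and 27.6 FPKM in serum and 4.55 and 6.31 in 2i (limma log2 fold change −2.51, adjusted p = 5.49e-05). Spry4 had 60.9 and 76.8 FPKM in serum and 0.173 and 0.269 in 2i (limma log2 fold change −7.76, adjusted p = 4.91e-06). As in WT, each gene kept its cultures far apart. Spred1 had 49.1 and 51.1 FPKM in serum and 9.11 and 12.4 in 2i (limma log2 fold change −2.22, adjusted p = 6.10e-05). Etv4 had 60.2 and 50.02 FPKM in serum and 10.3 and 9.16 in 2i (limma log2 fold change −2.48, adjusted p = 0.000135). The difference between the genotypes in this culture effect, the interaction of P53 and culture, had 95% intervals on the log2 scale of −0.86 to 0.49 for Dusp6, −1.33 to 0.43 for Spry4, −0.39 to 0.84 for Spred1 and −0.79 to 0.89 for Etv4.

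Spry2 in P53-/- ESCs had 38.0 and 65.6 FPKM in serum and 4.20 and 3.95 in 2i (limma log2 fold change −3.58, adjusted p = 4.95e-05). Spry1 had 5.88 and 5.34 FPKM in serum and 3.99 and 3.88 in 2i. Its libraries did not overlap, but the log2 fold change of −0.50 (limma adjusted p = 0.0280) was under 1.5-fold, so it was not called. Dusp4 had 3.04 and 1.77 FPKM in serum and 1.81 and 1.99 in 2i, so that the cultures overlapped (log2 fold change −0.28, limma adjusted p = 0.452). Etv5 also overlapped, with 73.8 and 63.9 FPKM in serum and 63.1 and 64.7 in 2i (limma log2 fold change −0.10, adjusted p = 0.464).

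Egr1 had 2.46 and 5.29 FPKM in P53-/- serum and 0.335 and 0.298 in P53-/- 2i, an estimated 14.5 and 7.25 fragments in the latter. Its log2 fold change was −3.16 (SE 0.56, limma adjusted p = 0.00183). With a pseudocount of 1 it was −1.82. Fos had 2.22 and 0.984 FPKM in P53-/- serum and 7.45 and 7.55 in P53-/- 2i (log2 fold change 2.26, SE 0.34, limma adjusted p = 0.000760). Fos was therefore higher in 2i than in serum with or without P53, from levels that differed between the genotypes in 2i.

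The effect of P53 was compared next, within each culture. In 2i, Fos, Egr1 and Spry2 were lower in P53-/- than in WT and Spry1 was higher. The count was 3 of 10 lower, where 5.97% of all genes tested were called as lower, and 1 of 10 higher, where 4.36% were. The libraries of the genotypes did not overlap for 5 genes lower in P53-/-, against 24.7% of all genes tested, and 3 higher, against 29%. The median over the 10 genes was −0.23, and 0.02 over all genes. These comparisons share their libraries with the culture comparisons, so that a low P53-/- 2i value enters both.

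**Figure D3:**
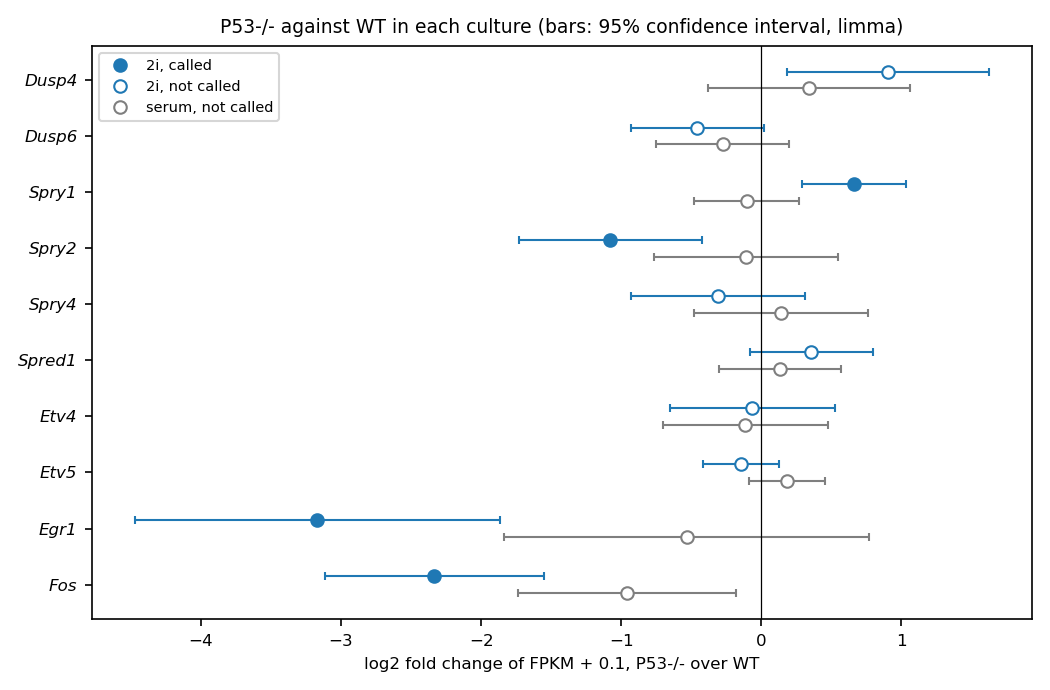
Log2 fold change of FPKM + 0.1 between P53-/- and WT for each of the 10 genes, in 2i (blue) and serum (grey), with 95% confidence intervals from limma. Filled points were called. Egr1 (−3.17) and Fos (−2.33) lie farthest from 0 in 2i, and no gene was called in serum.

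Fos fell from 37.0 and 39.4 FPKM in WT 2i to 7.45 and 7.55 in P53-/- 2i, with no overlap and a small spread within each pair. The log2 fold change was −2.33 (SE 0.34, limma adjusted p = 0.00960), or 5.04 times lower. Over the alternative settings the adjusted p of Fos stayed between 0.00262 and 0.0759. Egr1 fell from 6.84 and 1.92 FPKM in WT 2i to 0.335 and 0.298 in P53-/- 2i (log2 fold change −3.17, SE 0.56, limma adjusted p = 0.0206). The WT libraries of Egr1 differed more from each other than those of Fos, and the log2 fold change was −2.28 without WT 2i library 1 and −4.06 without WT 2i library 2. With a pseudocount of 1 it was −1.86. The Egr1 call was lost without P53-/- 2i library 2 (limma adjusted p = 0.116) and when the 2i libraries were fitted alone (0.146).

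Spry2 had 10.9 and 6.92 FPKM in WT 2i, against 4.20 and 3.95 in P53-/- 2i (log2 fold change −1.08, SE 0.28, limma adjusted p = 0.0644). Spry1 had 2.47 and 2.44 FPKM in WT 2i, against 3.99 and 3.88 in P53-/- 2i (log2 fold change 0.66, SE 0.16, limma adjusted p = 0.0520). Spry2 and Spry1 thus moved in opposite directions, each without overlap between the genotypes. Both calls were lost when the 2i libraries were fitted alone, where the limma adjusted p was 0.187 for Spry2 and 0.204 for Spry1. They were also lost without either P53-/- 2i library, without either WT serum library and without WT 2i library 1, and that of Spry1 was lost without WT 2i library 2 and with a pseudocount of 1 as well. Without the trend in the variance Spry2 was not called (limma adjusted p = 0.116).

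The other 6 genes were not called in 2i. Dusp4 had 0.832 and 1.11 FPKM in WT 2i, against 1.81 and 1.99 in P53-/- 2i (log2 fold change 0.91, 95% interval 0.19 to 1.63, limma adjusted p = 0.120). It was called with quantile normalization (1.14, limma adjusted p = 0.0741) and without P53-/- serum library 1 (limma adjusted p = 0.0941) or library 2 (0.0904). Dusp6 had a log2 fold change of −0.46 (95% interval −0.93 to 0.02, limma adjusted p = 0.214). The log2 fold changes of Spry4, Spred1, Etv4 and Etv5 were −0.31, 0.36, −0.06 and −0.15, with limma adjusted p values from 0.285 to 0.914. Intervals of this width leave room for differences of 1.5-fold in Dusp6, Spry4, Spred1 and Etv4.

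In serum none of the 10 genes was called by limma between P53-/- and WT, against 1.02% of all genes tested (0.883% lower and 0.135% higher), and 1 had an unadjusted p under 0.05, as 11.3% of all genes tested did. That gene was Fos, with 3.58 and 2.48 FPKM in WT serum, against 2.22 and 0.984 in P53-/- serum (log2 fold change −0.96, 95% interval −1.74 to −0.18, limma adjusted p = 0.337). Both P53-/- libraries of Fos were below both WT libraries. Without P53-/- serum library 1 it was called (−1.51, limma adjusted p = 0.0811). For the other 9 genes the log2 fold changes ran from −0.53 for Egr1 to 0.34 for Dusp4. The genotypes did not overlap for 2 genes lower in P53-/- serum, against 21.8% of all genes tested, and 1 higher, against 25.7%. The latter was Etv5, whose P53-/- libraries were below WT in 2i and above WT in serum, and 7.6% of all genes tested had P53-/- libraries on opposite sides of WT in the 2 cultures, in either order.

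Whether the effect of P53 differed between 2i and serum was tested as the interaction. No gene of the 10 was called by limma, where 0.207% of all genes tested were, and 4 had an unadjusted p under 0.05, against 13.1% of all genes tested. These were the genes called in 2i, and since the interaction uses the same 2i libraries, the 4 are no independent support for a difference. Their interactions on the log2 scale were −2.64 for Egr1 (95% interval −4.48 to −0.79, limma adjusted p = 0.242), −1.38 for Fos (−2.48 to −0.27, adjusted p = 0.299), −0.97 for Spry2 (−1.89 to −0.04, adjusted p = 0.363) and 0.77 for Spry1 (0.24 to 1.30, adjusted p = 0.239). That of Egr1 was −1.75 without WT 2i library 1, −3.53 without WT 2i library 2 and −1.435 with a pseudocount of 1. A difference between the cultures in the effect of P53 on the 4 genes was therefore not established over all genes tested.

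The other genes of the pathway were examined as a list of 107, of which 77 could be tested. Between 2i and serum in WT, 51 of the 77 were called (66.2%), 19 higher and 32 lower, against 55.7% of all genes tested. In P53-/- ESCs it was 54 of the 77 (70.1%), 20 higher and 34 lower, against 58.2%. All parts of the pathway held genes that differed between the cultures, in both directions except among the ETS factors.

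Among the ligands 5 of 18 could be tested, and all 5 were called in both genotypes, against 55.7% of all genes tested in WT and 58.2% in P53-/-. Fgf3 and Fgf4 were higher in 2i and Fgf10, Fgf15 and Fgf17 were lower. Fgf4, the main FGF of ESCs, had 33.3 and 32.7 FPKM in WT serum and 61.7 and 68.5 in WT 2i (limma log2 fold change 0.98, adjusted p = 0.00161). Of the receptors Fgfr1, the main FGF receptor of ESCs, was lower in WT 2i (log2 fold change −0.96), as was Fgfr3 (−2.73), and Fgfrl1, a receptor without a kinase domain, was higher (0.96). The call of Fgf10 was lost in WT without WT 2i library 2 or WT serum library 2, and in P53-/- without P53-/- 2i library 2 or P53-/- serum library 1. That of Fgf15 was lost in WT without WT serum library 1. Fgf15 and Fgfr3 passed the filter only through their serum libraries. In WT, a pseudocount of 1 gave log2 fold changes of −0.81 for Fgf15, −1.19 for Fgfr3, −1.69 for Fgf17 and 1.51 for Fgf3. Fgfr2 was below the filter, at 0.0385 to 0.550 FPKM.

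The counts by tier that follow stand beside the 55.7% of all genes called between the cultures in WT. Among the adaptors and exchange factors 6 of 9 tested genes were called (66.7%), 1 higher and 5 lower, with log2 fold changes of 1.90 for Frs3, −1.79 for Grb2, −1.57 for Gab1 and −1.43 for Sos1, the RAS exchange factor. In the RAS, RAF, MEK and ERK tier 5 of 11 were called (45.5%), 2 higher and 3 lower, among them Braf (−2.23) and Mapk3, which encodes ERK1 (−0.86). The genes of the MEK kinases that PD0325901 inhibits were not called as lower in WT 2i, with log2 fold changes of 0.81 for Map2k2 (called) and 0.08 for Map2k1 (limma adjusted p = 0.637). Among the ERK-activated kinases 4 of 8 were called (50%), Rps6ka3 (−1.78), Rps6ka6 (−1.04) and Rps6ka5 (−0.83) as lower and Mknk1 (0.62) as higher. The call of Rps6ka5 was lost without WT 2i library 1 or either WT serum library and that of Mknk1 without WT 2i library 1, without WT serum library 1 or with a pseudocount of 1.

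Of the other negative regulators 12 of 16 tested were called in WT (75%), 4 higher and 8 lower, so that the fall seen for Dusp6 and the Sprouty genes was not shared by every inhibitor. Dusp14 (log2 fold change 2.65) and Dusp10 (1.91) were higher in WT 2i, and Cbl (−2.01) and Rasa2 (−1.58) were lower. Dusp10 acts mainly on the stress kinases p38 and JNK, and Cbl is a ubiquitin ligase for active receptors. Of the other ETS factors and SRF 3 of 6 were called (50%), all lower, and these were Etv1, the third gene of the family of Etv4 and Etv5 (−2.50), Elk4 (−2.14) and Elk3 (−1.98). Of 6 other ERK target genes 4 were called (66.7%), with Myc at −5.58, Phlda1 at −2.84, Epha2 at −0.77 and Epha4 at 2.42. Myc had 22.0 and 26.9 FPKM in WT serum and 0.895 and 0.161 in WT 2i, and it passed the filter only through its serum libraries. The log2 fold change of Myc was −6.55 without WT 2i library 1, −4.62 without WT 2i library 2 and −4.10 with a pseudocount of 1, and that of Phlda1 was −3.68 and −2.00 without these libraries. A pseudocount of 1 gave log2 fold changes of −1.84 for Phlda1, −1.67 for Etv1 and 1.26 for Dusp10.

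Of the 13 other immediate early genes tested, 9 were called between the cultures in WT, 7 higher and 2 lower in 2i, where 27.2% and 28.6% of all genes were. The largest changes were those of Atf3 (4.07), Ier5 (2.36), Jund (2.21) and Jun (2.09), all higher in 2i like Fos. Atf3, a stress-responsive factor, had 1.57 and 1.63 FPKM in WT serum and 31.5 and 25.7 in WT 2i. Jun, the partner of FOS in AP-1, had 1.10 and 1.71 in WT serum and 5.96 and 6.44 in WT 2i. In P53-/- ESCs the log2 fold changes between 2i and serum were 2.85 for Atf3, 1.45 for Ier5, 2.12 for Jund and 1.63 for Jun. Heat shock genes, which also respond to cell stress, moved with culture in part. The sum of 6 of them, mostly Hspa8, overlapped between cultures, at 793 to 978 FPKM in 2i and 879 to 1180 in serum. In WT 2i, however, Hspa1a (log2 fold change 3.89), Hspa1b (2.09) and Dnajb1 (0.77) were higher and Hsph1 (−2.40) was lower. Hspa1a passed the filter only through its 2i libraries. Their part in the immediate early gene result was not tested.

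**Figure D4:**
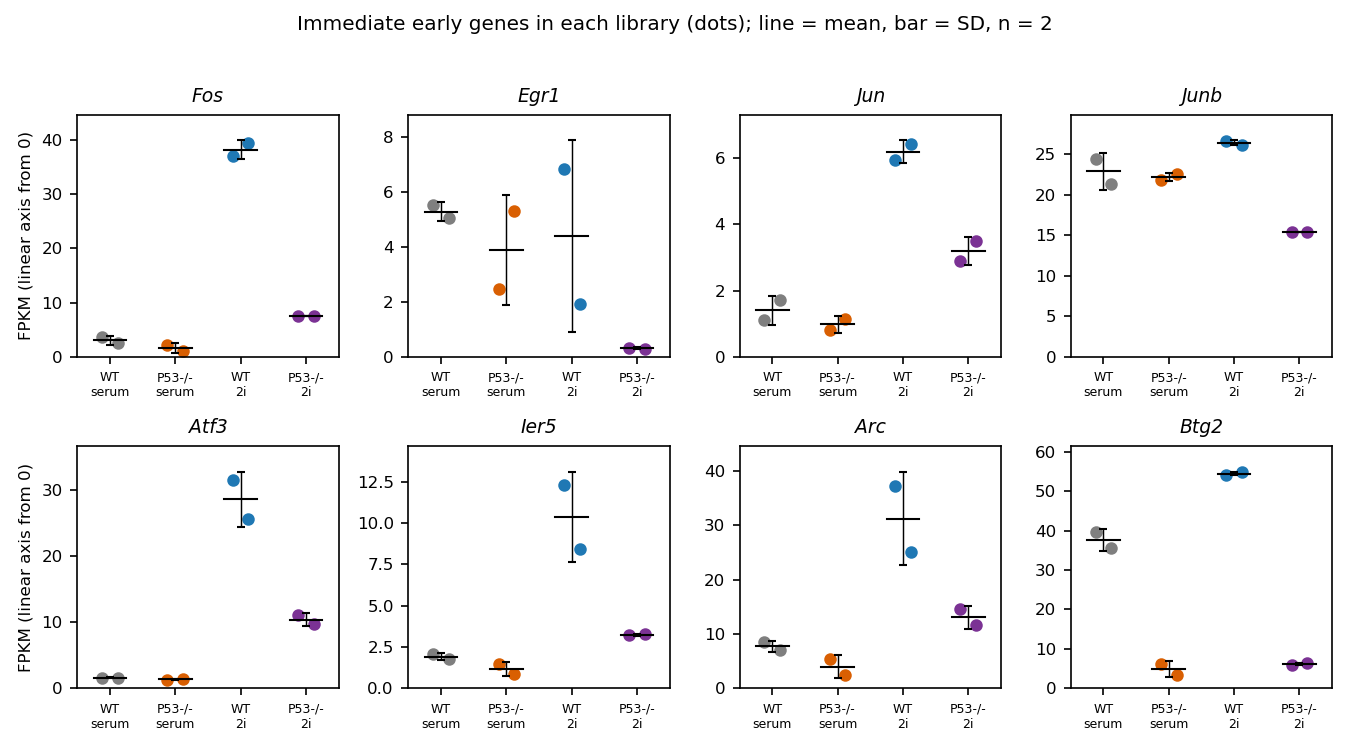
FPKM of Fos, Egr1 and the 6 other immediate early genes called between P53-/- and WT in 2i, on linear axes from 0 with a separate scale per gene. Dots are the 2 libraries of a group, the line their mean and the bar the SD. The genes were chosen for plotting because they were called in 2i, so the lower P53-/- values in 2i follow from that choice. In serum both P53-/- libraries lie below both WT libraries for Fos, Atf3, Ier5, Arc and Btg2, as for 21.8% of all genes tested.

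Between P53-/- and WT in 2i, 16 of the 77 other pathway genes were called (20.8%), 4 higher and 12 lower, against 10.3% of all genes tested. Of these, 6 were immediate early genes, all lower in P53-/-, or 46.2% of the 13 tested against 5.97% of all genes called as lower. That list was chosen with earlier results of these data known. Btg2, an antiproliferative gene and known P53 target, had 54.2 and 54.7 FPKM in WT 2i, against 5.98 and 6.35 in P53-/- 2i (limma log2 fold change −3.12, adjusted p = 0.000673). Atf3 fell to 11.1 and 9.71 FPKM in P53-/- 2i (limma log2 fold change −1.45, adjusted p = 0.00435). The others were Ier5 (−1.62, limma adjusted p = 0.0203), Junb (−0.77, 0.0124), Arc (−1.23, 0.0812) and Jun (−0.94, 0.0891). When the 2i libraries were fitted alone, the count of 6 was 2, and the calls of Arc and Jun were each lost without 6 of the 8 libraries in turn. Arc and Jun were also not called without the trend in the variance (limma adjusted p = 0.136 and 0.103) or with all genes above 0 tested (0.118 and 0.1305), nor Jun with a pseudocount of 0.01 (0.103). The call of Ier5 was lost without P53-/- 2i library 2 (limma adjusted p = 0.105). Of the heat shock genes, Hspa1a and Hspa1b had log2 fold changes of −0.67 and −0.92 in the same comparison (limma adjusted p = 0.466 and 0.110), and Hsph1 was higher (1.04, limma adjusted p = 0.00790).

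The remaining pathway genes called in 2i lay in several tiers. Fgfrl1 had 4.83 and 3.80 FPKM in WT 2i, against 11.8 and 14.5 in P53-/- 2i (limma log2 fold change 1.59, adjusted p = 0.00511). Etv1 (1.21, limma adjusted p = 0.0412), Rps6ka3 (0.67, 0.0920) and the adaptor gene Shc1 (0.60, 0.0776) were also higher. The receptor gene Epha2 (−1.30, limma adjusted p = 0.00221), the RAS GTPase activator gene Rasa3 (−1.20, 0.0108), Il17rd (−0.90, 0.02), whose product is an FGF receptor antagonist, Epha4 (−0.78, 0.0358), Elk3 (−0.76, 0.0630) and Rps6ka4 (−0.65, 0.0971) were lower. Of the 16 genes called in 2i, Btg2, Atf3 and Epha2 were called when the 2i libraries were fitted alone. Without either P53-/- 2i library in turn, Etv1, Rps6ka3, Shc1, Epha4, Elk3 and Rps6ka4 were not called. None of the ligand genes and none of the RAS, RAF, MEK and ERK genes was called by limma, with 0 of 5 and 1 of 11 at an unadjusted p under 0.05, against 25.2% of all genes tested. In serum Btg2 was the 1 pathway gene called (−3.00, limma adjusted p = 0.00243), or 1.3% of the 77 against 1.02% of all genes tested. This call was lost when the serum libraries were fitted alone (limma adjusted p = 0.133), with the same fold change. Of the 77, 11 had an unadjusted p under 0.05 in limma, against 11.3% of all genes. For the interaction none of the 77 was called by limma, against 0.207% of all genes tested. An unadjusted p under 0.05 was found for 13 of the 77, against 13.1% of all genes.

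The likeness of the patterns was measured as the root mean square difference of centred log2 values over the 8 libraries, which come in pairs of the same culture and genotype. Among the 10 genes the closest pairs were Dusp6 and Etv4 (0.266), Dusp4 and Spry1 (0.303), Spred1 and Etv4 (0.326) and Dusp6 and Spred1 (0.344). Of 11486 genes searched outside the 10, those most like Dusp6 were Elk4 (0.163), Sgms2 (0.166) and D16Ertd472e (0.186). Those most like Etv5, which varied little, were 1810032O08Rik (0.0520), Cstf2t (0.0760) and Exoc8 (0.0760). Spry4 and Egr1 had no match as close. For Spry4 the nearest were Spink1 (0.398) and Hist1h2ao (0.607), both listed at 0 in the 4 libraries in 2i, and Gm1821 (0.852), and for Egr1 they were Sema4a (0.604), Evc (0.621) and Sned1 (0.634).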

How the data were processed

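RNA-seq covered G1-sorted WT and P53-/- ESCs grown in serum or in 2i (2 libraries in each of 4 groups), made from total RNA after ribosomal RNA depletion. The authors deposited FPKM values per gene symbol, already scaled by transcript length and mapped fragments. The submitters' processing notes name STAR, Cufflinks, DESeq2 and the build mm9, without saying what each did. Columns were grouped by genotype and culture. The labels hold 2 sets of WT 2i libraries, and the WT 2i columns were assigned to 1 set because the order of words in their name matches its titles alone. The other set and the P21-/- libraries were not analysed here. Per the study, P53-/- clones 1 and 2 were sequenced, but neither columns nor labels tie a library to a clone or a culture. The p-values measure the spread between these libraries, which may be between clones in P53-/- and may be technical in WT.

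Tests were run with limma 3.58.1 (R 4.3.3) on log2(FPKM + 0.1), for genes whose mean FPKM reached 0.5, in 1 fit of the 4 groups with eBayes(trend = TRUE) and Benjamini-Hochberg adjustment. Calls required an adjusted p below 0.1 and a change over 1.5-fold. With 2 libraries against 2, no exact test of 1 gene can pass 0.05. Depth was estimated from the steps between low FPKM values and carries a factor common to the 8 libraries. FPKM are not counts, so no count model was fitted and no counting interval is given. The 10 genes and all lists were chosen with earlier results of these data known. Named pathway genes were the up to 4 called genes per group with the largest culture change in WT, every gene called in a P53 comparison, the main ligand, receptors and kinases. Some genes that this rule names are not reported here. Alternatives were pseudocounts of 1 and 0.01, other filters and scalings, only the compared groups, no trend, an adjusted p under 0.05, no small RNA genes and each library left out. The procedure was tested on simulated data. Promoters came from RefSeq (GRCm38.p6). Promoters and figures were handled in Python 3.11.15 with matplotlib 3.10.9, pandas 2.3.3 and numpy 2.4.6.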

Additional observations from a re-analysis of the deposited data

Results flagged for a closer look

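Of 51 genes, the 10 and the named pathway genes, many of them named because they were called in a P53 comparison, 5 (9.8%) had P53-/- libraries that all lay on 1 side of WT in 2i and all on the other side in serum, a pattern found, in either order, in 7.6% of all genes tested. They were Etv5, Fgf17, Epha4, Fgfrl1 and Shc1. The interaction of P53 and culture in limma, on the log2 scale, was −0.33 for Etv5 (SE 0.17, adjusted p = 0.447), with Etv5 lower in P53-/- in 2i and higher in serum. It was −1.51 for Fgf17 (limma adjusted p = 0.326) and −1.13 for Epha4 (0.161), both lower in P53-/- in 2i and higher in serum. It was 1.72 for Fgfrl1 (limma adjusted p = 0.101) and 1.06 for Shc1 (0.169), both higher in P53-/- in 2i and lower in serum. None of the 5 passed the threshold. The interaction of Fgfrl1 was called with a pseudocount of 1 (1.51, limma adjusted p = 0.0708), with a mean FPKM of at least 1 (adjusted p = 0.0982), with quantile normalization (0.0899), without small RNA genes (0.0890) and without WT 2i library 1 (0.0870).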

How the results depend on the processing

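No paired analysis was possible because the columns carry no replicate number. No result reversed its call under any alternative run. Across the 2 culture comparisons the number of the 10 genes called stayed at 7 to 8 in WT and at 7 in P53-/-. For P53-/- against WT in 2i it was 4, and 1 in a fit of only the compared groups, 2 at an adjusted p under 0.05 and 1 to 5 with each library left out (lowest without P53-/- 2i library 2). In serum it was 0, and 0 to 1 with each library left out. Of the other pathway genes, the 16 called in 2i became 3 with only the compared groups, 10 at an adjusted p under 0.05 and 7 to 14 with each library left out, and the 1 called in serum became 0 with only the compared groups. For the interaction the 0 pathway genes became 2 with a pseudocount of 1, 1 with a mean FPKM of at least 1, 1 with quantile normalization, 1 without small RNA genes and 0 to 1 with each library left out. Of the other immediate early genes, the 6 called in 2i became 2 with only the compared groups and 3 to 6 with each library left out, the 1 in serum became 0 with only the compared groups, and the 0 of the interaction became 1 with a pseudocount of 1 (Atf3, −1.23, limma adjusted p = 0.0943).

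Over all genes, the 1299 called in 2i became 193 with only the compared groups, 771 at an adjusted p under 0.05 and 491 to 1224 with each library left out. The 128 called in serum became 37, 73 and 52 to 148 under the same settings. The 26 of the interaction became 66 with a pseudocount of 1, 40 without a trend, 16 at an adjusted p under 0.05 and 19 to 69 with each library left out. The fit of only the compared groups has fewer libraries to estimate the spread, and a library left out leaves a group with 1, assumed to vary like the others. The causes of the other changes were not tested. Spry4 in 2i, at 6.94 to 9.84 estimated fragments per library, is the gene that depth limits most among the 10.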
